A study of Mus musculus with 2 samples.

Results

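Malat1, Neat1, Miat, Rmst, Snhg11 and Sox2ot are long noncoding RNAs that are transcribed in the mouse brain. They were chosen by symbol in the GENCODE vM1 gene models of mm9, and all 6 were found there among 37310 annotated genes, of which 14930 are not protein coding. RNA-Seq reads over them came from 2 libraries, each made from polyA-selected RNA of 1 F1 whole brain at E17.5 (embryonic day), with no treatment and no pooling of embryos. The BxC embryo had a C57BL/6J mother and a CastEi/J father, and the CxB embryo had a CastEi/J mother and a C57BL/6J father. By the study's methods the CxB brain was male, and which BxC brain is behind the BxC library is not stated. With 1 library per cross no test between crosses can be made, and every interval given here is a 95% interval for counting error only, since PCR reads without molecular identifiers are not independent molecules.

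Long noncoding RNAs are transcribed and often spliced like messenger RNAs but are not known to work through a protein. Several of these 6 stay in the nucleus. Malat1 collects in nuclear speckles, which store splicing factors, and Neat1 is the scaffold of paraspeckles, bodies that hold RNA-binding proteins. Miat, also called Gomafu, marks separate spots in the nuclei of neurons. Rmst and Sox2ot are tied to the neural progenitor factor SOX2, Rmst as a partner of the protein and Sox2ot as the transcript whose introns hold the Sox2 gene. Snhg11 is a host gene whose introns carry small nucleolar RNAs.

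In all, 128944754 reads were deposited for BxC and 109719746 for CxB, so that a count of 0 in a library still allows 0.0233 and 0.0273 reads per 1000000 reads (RPM). Markers of the main brain cell types were read. Tubb3 of neurons stood at 974 and 840 RPKM, the RPM for each kilobase of exon, in BxC and CxB, and Fabp7 of radial glia at 152 and 160 RPKM. Of the 2 microglia markers, Csf1r had 3.84 and 3.74 RPKM and Aif1 had 90 and 77 reads. The 4 markers of other organs (Alb, Afp, Myh3 and Ins2) stood at 0.293 RPKM or less in each library, and the summed level of the 3 red blood cell markers was 271 RPKM in BxC and 221 RPKM in CxB. Xist, the RNA that coats the inactive X chromosome, had 142957 reads in BxC and 38 in CxB. Reads of chromosome Y came from 277 distinct positions in BxC and 7192 in CxB. By these reads the BxC brain was female and the CxB brain male, so that cross and sex cannot be told apart in any comparison of these libraries.

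The 6 RNAs kept the same order of levels in both libraries, from Malat1 at the top to Neat1 at the bottom. Per length of exon, Malat1 was the highest at 159 RPKM in BxC (interval 158 to 159) and 163 RPKM in CxB (162 to 164). Snhg11 followed at 112 RPKM in BxC (112 to 113) and 102 RPKM in CxB (101 to 103). Miat came next at 78.0 RPKM in BxC (77.5 to 78.5) and 77.1 RPKM in CxB (76.6 to 77.7). These 3 formed an upper group, and the next member, Sox2ot, was 25.7 and 23.9 times lower than Miat in BxC and CxB.

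The lower group was read with far fewer counts. Sox2ot had 3.03 RPKM in BxC (2.93 to 3.14) and 3.22 RPKM in CxB (3.11 to 3.34). Rmst had 1.36 RPKM in BxC (1.28 to 1.45) and 1.26 RPKM in CxB (1.17 to 1.36). Neat1 had 0.784 RPKM in BxC (0.751 to 0.819) and 0.692 RPKM in CxB (0.658 to 0.727). No 2 neighbors in this order had overlapping counting intervals in either library, although the spread between embryos of a cross is unknown. When each distinct alignment position was counted once, Miat (38.8) came above Snhg11 (30.5), on the same scale for positions in place of reads and as the mean of both libraries. On that scale Sox2ot stood at 4.91, a much smaller step down from Miat than by reads. Exon length limits the number of distinct positions, so this scale lowers deep genes most. In BxC Malat1 had 10358 positions on 6982 exon bases and Sox2ot 1303 on 8632. The smaller step is therefore in part built into the scale. The place of Neat1 also depends on the transcript taken, as described with its profile. So does the distance of Snhg11 from Malat1. Over its longest transcript alone Snhg11 stood at 154 RPKM, beside 161 RPKM for Malat1, as means of both libraries.

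Set against the other annotated genes, the upper group was among the highest expressed. Malat1 ranked 137 in BxC and 127 in CxB of all 37310 genes by RPKM, Snhg11 ranked 237 and 264, and Miat ranked 407 and 400. Among genes that are not protein coding, Malat1 ranked 31 in each library and Miat 58 and 60. By the mean of both libraries their ranks were 33 and 62, and with distinct positions 19 and 37. The genes next to Malat1 in that order by mean RPKM were Snord104 (162) and Gm14150 (157), and those next to Miat were Gm10060 (83.4) and Gm14964 (76.2). Sox2ot ranked 882 and 833, Rmst 1514 and 1585, and Neat1 2038 and 2200 among the same genes. GENCODE vM1 lists Snhg11 as protein coding, so its place at 45 and 46 is where its RPKM would fall in that list. The highest of the genes that are not protein coding in each library were the pseudogene Gm9844 and the short annotated miRNA genes AC113316.1 and AC115697.1.

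Between the reciprocal crosses the levels of all 6 RNAs lay close together. Of the 6 members, 0 differed 2-fold between the libraries and 0 differed 1.5-fold, against a background of 0.136% of genes past 2-fold (21 of the 15427 genes with at least 100 reads in each library) and 1.1% past 1.5-fold (169 genes). By direction, 0.0713% of genes were 2-fold higher in CxB and 0.0648% lower, and 0.473% were 1.5-fold higher and 0.622% lower, again with 0 members in each. The log2 ratio of RPM in CxB over BxC was 0.04 for Malat1 (interval 0.03 to 0.05), 0.09 for Sox2ot (0.02 to 0.16) and -0.02 for Miat (-0.03 to -0.00175). It was -0.11 for Rmst (-0.26 to 0.03), -0.14 for Snhg11 (-0.15 to -0.13) and -0.18 for Neat1 (-0.28 to -0.09). The median over the members was -0.06, beside a median of -0.00108 over all 15427 genes, of which the middle 90% lay between -0.29 and 0.28. All 6 ratios thus lay within that middle range, and with 1 embryo per cross even the intervals that leave out 0 do not bear on a difference between crosses.

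**Figure D1:**
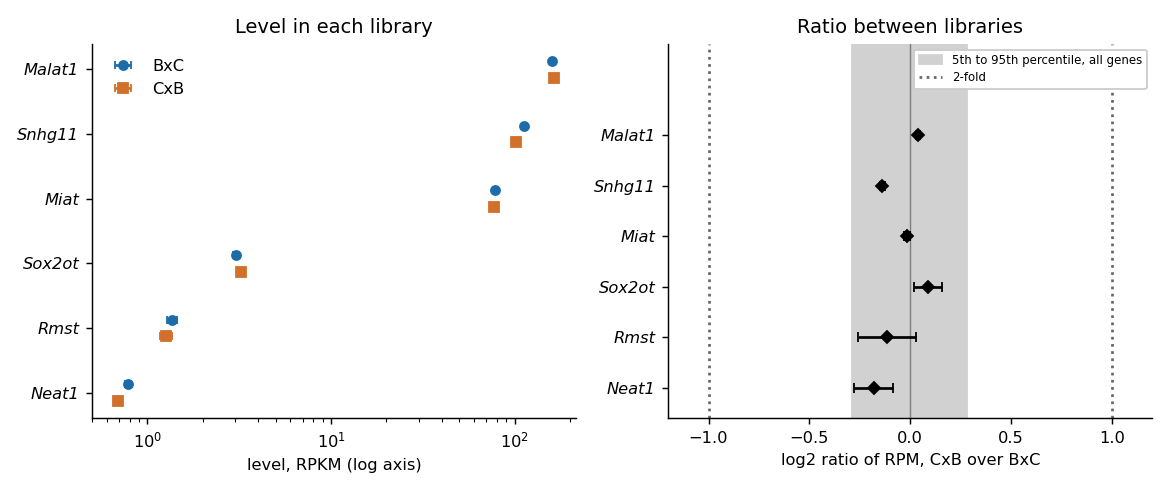
The left panel plots the level of each RNA in RPKM on a log axis in BxC (circles) and CxB (squares) with exact Poisson intervals, which are mostly narrower than the symbols. The right panel plots the log2 ratio of CxB over BxC with its counting interval, the 5th to 95th percentile of 15427 genes as a gray band and 2-fold as dotted lines: Malat1, Snhg11 and Miat stand far above the other RNAs on the left, and all 6 ratios lie inside the band on the right.

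The strand column did not mark the strand of the transcript. Reads on the annotated strand of the gene made up 38.9% of the reads of Snhg11 in BxC and 38.4% in CxB, the lowest share of the 6, and 45.0% and 45.5% of those of Neat1, the highest. Counted by distinct positions this order turned over, with Snhg11 the highest at 56.7% and Neat1 the lowest at 41.1% (means of both libraries). Over all genes with at least 100 reads the pooled share was 43.6% in BxC and 43.0% in CxB. The study's methods describe strand-specific libraries made with dUTP, yet reads fell on both strands of every member. Transcription of a member and of an overlapping gene on the other strand therefore could not be separated, which matters for Malat1 beside Gm20417 and for Rmst beside Gm17341. The 52 gaps of spliced reads counted for the members had GT and AG at their ends when read on the strand of the member, but since spliced reads were placed only on junctions of gene models, that direction is the one of the models and no measurement of strand, and Malat1 and Neat1 had no such gap. A further gap in the span of Sox2ot, with 2 reads in CxB, matches an intron of Gm20515 on the opposite strand and was set aside.

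Malat1 lies on the minus strand at chr19:5795690-5802671 (ENSMUSG00000092341.1), where its annotated transcripts together fill 6982 bases without a gap. It was covered nearly throughout, with at least 1 read over 98.5% of its bases in BxC and 98.7% in CxB and at least 10 reads over 96.0% and 95.3%. Of the 90 bases that neither library covered, 84 cannot be reached by any 36-base word that occurs once in the genome. The mean depth was 736 reads in BxC and 644 in CxB, from 142829 and 124910 reads. Depth varied along the RNA in the same way in both libraries, with a correlation over 20 equal bins of 0.993 (Pearson) and 0.968 (Spearman), given as a description since the bins share a sequence and its mappability. The deepest of the 20 bins, bases 1397 to 1745 from the start, held 18.7% of the depth in BxC and 16.9% in CxB.

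The 3′ end of Malat1 is unusual, because the mature RNA is known to end in an A tract that the genome encodes, freed by cleavage in front of a tRNA-like small RNA, rather than in an added polyA tail. The level and rank of Malat1 given above come from polyA-selected libraries, and how well the selection caught such an end was not tested. That stretch is shown here for where the reads stop, from chr19:5795920-5796099 on the minus strand of mm9, with the run of 12 A in capitals.
Malat1 end: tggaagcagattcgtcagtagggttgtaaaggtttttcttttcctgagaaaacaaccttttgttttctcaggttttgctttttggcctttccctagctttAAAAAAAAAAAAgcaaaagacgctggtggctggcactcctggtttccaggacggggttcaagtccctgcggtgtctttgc
The A tract takes up bases 6673 to 6684 of the annotated 6982. Mean depth was 2329 reads in BxC and 2110 in CxB in the window that ends 101 bases before the tract, 115 and 94.7 in the next 50 bases, and 2.98 and 5.26 in the 50 bases directly before it. The last base with a depth of at least 100 lay 90 bases before the tract in both libraries, so that the depth fell ahead of the A tract and not at it. Past the tract the annotated gene goes on at a mean depth of 31.1 reads in BxC and 16.9 in CxB, which is 24.8 and 39.9 times below the mean ahead of it. All 36-base words from that last deep base to the annotated end occur once in the genome.

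Malat1 had 0 spliced reads in either library at its 4 annotated introns. Unspliced reads crossed the borders of 3 of them, with up to 302 reads in BxC and 215 in CxB at 1 border, and 0 crossed those of the other, an intron of 42 bases. Since spliced reads were placed only on junctions of UCSC known genes, an intron missing from those models could not have been found. Along the RNA the log2 ratio of depth between libraries lay between -0.12 and 0.21 in 18 of the 20 bins. It was -0.61 in the last bin, where the mean depth was 27.04 in BxC and 15.1 in CxB, and highest in the tenth, bases 3142 to 3491, at chr19:5799181-5799530. This bin held 2840 reads in BxC and 3876 in CxB, a log2 ratio of 0.68 (interval 0.61 to 0.75) beside 0.04 for the whole RNA. Its reads came from 559 and 541 distinct positions, and the most used position held 3.73% and 4.88% of them.

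The study also designed a pyrosequencing assay of Malat1. Its primers are shown because they place the assayed stretch on the profile, with the bases that match mm9 in capitals. The lower-case bases belong to a tail added to the forward primer, and the last base of that tail also matches mm9 and is in capitals.
Forward primer: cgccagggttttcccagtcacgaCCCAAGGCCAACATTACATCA
Reverse primer: GTGAACGAGCCTTTTCTTGTTTAA
Sequencing primer: GGTAATCTAGTGTTGAATCC
The matching bases of the primers enclose 107 bases at chr19:5796897-5797003, from base 5669 of the RNA on. The depth over these bases was 293 reads on average in BxC (203 to 377) and 213 in CxB (128 to 284), below the mean of the gene in both libraries.

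Neat1 lies upstream of Malat1 on the same strand, at chr19:5824708-5845478 (ENSMUSG00000092274.1). Its longest transcript takes up 20771 bases and a short transcript the first 3172 of them. The reads followed the short one. In BxC 2003 reads fell on its span and 98 on the remaining 17599 bases, and in CxB 1453 and 124 reads did. The level over the short span was 4.90 RPKM in BxC (4.69 to 5.12) and 4.17 RPKM in CxB (3.96 to 4.40), against 0.0432 and 0.0642 RPKM over the rest, a density 113 and 65.0 times higher.

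Taken over its short span Neat1 thus stood above Sox2ot and Rmst, each taken over all exon bases, rather than below them. This sets a part of Neat1, chosen after seeing its reads, against whole genes. The deeper parts of Sox2ot and Rmst were not set beside it. The first of 20 bins alone carried 61.2% of the depth in BxC and 58.6% in CxB, and the deepest base was number 70 and number 69 from the start, with 293 and 201 reads. Of all exon bases 25.8% and 26.3% were covered, but over the short span 94.7% and 93.8% were. Of the 36-base words of the part beyond it, 98.4% occur once in the genome. The end of the short form carries the signal for polyadenylation, AATAAA, shown in capitals in the last 100 bases of that form at chr19:5842307-5842406, minus strand.
Neat1 short end: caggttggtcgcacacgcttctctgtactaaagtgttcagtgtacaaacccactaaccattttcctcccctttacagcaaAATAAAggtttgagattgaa
Over the first 25 of these bases the mean depth was 18.1 reads in BxC and 10.2 in CxB, and over the last 25 it was 0.08 and 0.16. The long form is known to end without a polyA tail, and polyA selection was part of these libraries, so that little long form and little selection of it cannot be told apart here. At the 3 annotated introns of Neat1, all within the short span, 0 spliced reads were found in either library.

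**Figure D2:**
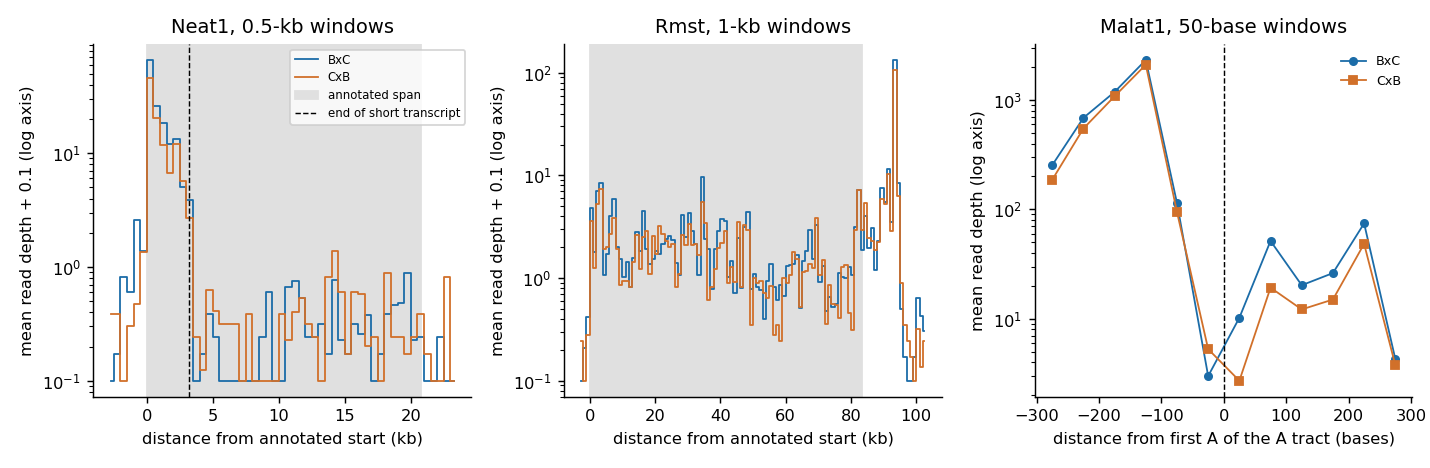
The left and middle panels plot mean read depth plus 0.1, on a log axis, against the distance in kb from the annotated start of Neat1 and Rmst, in BxC and CxB, with the annotated span shaded and the end of the short Neat1 transcript dashed. The right panel plots mean depth of Malat1 in windows of 50 bases against the distance from the first base of its A tract (dashed): Neat1 is deep only over its short form, the depth at the Rmst locus is highest beyond the annotated span, and the depth of Malat1 falls from 2329 and 2110 reads to 2.98 and 5.26 before the tract.

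RNA of the genes for proteins of paraspeckles and of nuclear speckles was read in both libraries, and the proteins themselves were not measured. Of 14 listed paraspeckle proteins all 14 had at least 100 reads, with a median log2 ratio of -0.07, and 0 of 14 passed 2-fold, a count that the 0.136% over all genes also gives. Dazap1 (101 and 102 RPKM in BxC and CxB) and Sfpq (63.7 and 66.6 RPKM), both RNA-binding proteins of the paraspeckle, were among the highest. Nono, a core paraspeckle protein whose gene lies on the X chromosome, had the ratio farthest from 0, with 37.7 RPKM in BxC and 23.4 RPKM in CxB (log2 ratio -0.69). Of 10 nuclear speckle proteins 0 passed 2-fold, again at the background of 0.136%, with a median log2 ratio of -0.04, and Srrm2, the large protein at the core of speckles, was the highest at 90.7 and 86.8 RPKM.

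Miat, on the minus strand at chr5:112642248-112657968 (ENSMUSG00000086878.2), had the most spliced reads of the 6. Its single annotated transcript has 7 exons, of which the last holds 7008 of the 8760 exon bases. At least 1 read lay over 99.95% of the bases of the exons in BxC and 99.97% in CxB. All 7 exons were deep, with mean depths from 218 to 693 reads in BxC and from 179 to 514 in CxB. Spliced reads numbered 1721 in BxC and 1398 in CxB, and every one of the 6 annotated introns had some in both. At the first intron, 252 bases long, 446 reads in BxC and 329 in CxB were spliced, a spliced share of 98.6% and 97.8% when the mean number of unspliced reads over both borders is added to the spliced ones. The fewest were at the second intron, with 17 reads in BxC and 6 in CxB.

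Spliced reads on gaps outside the annotated transcript of Miat were about as many as those on its introns, at 49.6% of all in BxC and 50% in CxB. There were 13 such gaps, 10 of them seen in both libraries and 8 with at least 10 reads in each. Most of the reads on them used an acceptor site, joined by 3 of the 13 gaps, that lies 36 bases inside exon 3 as annotated. That site took 644 reads in BxC and 534 in CxB, while the annotated acceptor of the same exon took 30 and 26. The most used junctions that leave exon 1 are shown to make the choice visible, as the last 15 bases of that exon in lower case and the next 15 bases of the RNA in capitals, from the minus strand of mm9.
To exon 2 as annotated: cgaggaggagccgagCTAGATGCACATGGG
To exon 3 as annotated: cgaggaggagccgagCCCTTACCATTCCTC
To the inner site of exon 3: cgaggaggagccgagACCTGGGGCGTCCAG
To exon 4 as annotated: cgaggaggagccgagCTGGAATTCCGTCTG
The first of these had 446 reads in BxC and 329 in CxB. The second had 13 and 20, the third 391 and 313, and the last 56 and 47. The order of the 3 most used junctions was the same in both libraries. The donor at the end of the second exon was also used at 2 places 8 bases apart, with 215 reads in BxC and 168 in CxB at the annotated one and 170 and 128 at the other.

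Depth along Miat peaked in the eleventh of 20 bins, which held 14.1% of the depth in BxC and 12.4% in CxB, and the deepest base was number 4516 in both, with 4049 and 2861 reads. Outside the exons of any gene the introns of Miat held 533 reads per kb in BxC and 448 in CxB, which is 5.30% and 5.29% of the density on its exons, and with distinct positions 17.0% and 16.3%. RNA of the genes for RNA-binding proteins known to bind Miat was read in both brains. Celf3 had 122 RPKM in BxC and 118 RPKM in CxB, Sf1, a protein that recognizes branch points, had 47.3 and 43.8 RPKM, and Qk, a regulator of splicing in glia, had 13.7 and 14.5 RPKM for the larger of its 2 gene models. The list of known partners of the 6 RNAs also holds Sox2 and Ptbp1, a repressor of neuronal splicing with 8.57 and 8.18 RPKM, and 0 of its 6 gene models passed 2-fold, beside 0.136% of all genes.

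Snhg11 lies on the plus strand at chr2:158201374-158211881 (ENSMUSG00000044349.8), with 8521 exon bases in 4 blocks and 6 annotated transcripts. Its reads crowded at the 3′ end. The last block of 5207 bases took 93.5% of its reads in BxC and 93.7% in CxB. The last 200 bases of the gene alone took 43507 reads in BxC and 28314 in CxB, or 35.2% and 29.7% of all its reads, at a mean depth of 7788 and 5070. The deepest base, 20067 reads in BxC and 13113 in CxB, was number 8343 and number 8342 of 8521.

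The ratio between libraries varied along Snhg11. The log2 ratio was -0.39 over the last 200 bases (-0.41 to -0.37) and -0.02 (-0.04 to -0.00658) over all other exon bases, where the level was 75.1 RPKM in BxC and 74.0 RPKM in CxB. That value is a balance of shifts in both directions among the 20 bins, such as -0.34 in bin 14, which held 13.9% and 12.1% of the depth, -0.30 in bin 1 and 0.30 in bin 11. The other exon bases placed Snhg11 below Miat in each library. Counted as distinct positions over all exons, the log2 ratio was 0.08.

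Of the 8 annotated introns of Snhg11, 6 had spliced reads in both libraries. The intron of 3698 bases was the most read, with 310 spliced reads in BxC and 229 in CxB, a spliced share of 93.4% and 95.6%. The first intron, of 192 bases, had 185 and 153 spliced reads, a share of 99.5% and 100%. In the middle part a direct junction with 179 and 169 reads passed over an exon that 7 and 5 reads entered and 7 and 7 left. These junctions are shown because the skipped exon separates the annotated transcripts, with the 15 bases before each junction in lower case and the 15 after it in capitals, from the plus strand of mm9.
Over the exon: gaagcaagtatcccgAATTGACAGCTTGGT
Into the exon: gaagcaagtatcccgGAGATGGGATAAAAA
Out of the exon: agtgctctctgacagAATTGACAGCTTGGT
Of the 2 annotated introns without a spliced read, 1 is a gap of 2 bases in a single transcript. Gaps outside the annotated transcripts held 0.376% of the spliced reads in BxC and 0.306% in CxB.

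Between the exon blocks of Snhg11, 1854 bases lay outside the exons of any gene. Their read density was 4.74% of that on the exons in BxC and 5.28% in CxB, and with distinct positions 24.4% and 24.04%. The 2 SNORA71 genes within the span, which encode small nucleolar RNAs that guide pseudouridine formation, had 95 and 60 reads in BxC and 114 and 64 in CxB. The one with 60 and 64 reads lies inside the second exon block of Snhg11, so that its bases were counted as exon. Small nucleolar RNAs carry no polyA tail, so their reads in polyA-selected libraries are no measure of their level. The gene holds repeated sequence: 91.6% of its 36-base words occur once in the genome, the lowest share of the 6, and 190 of the 288 exon bases that neither library covered cannot be reached by such a word.

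**Figure D3:**
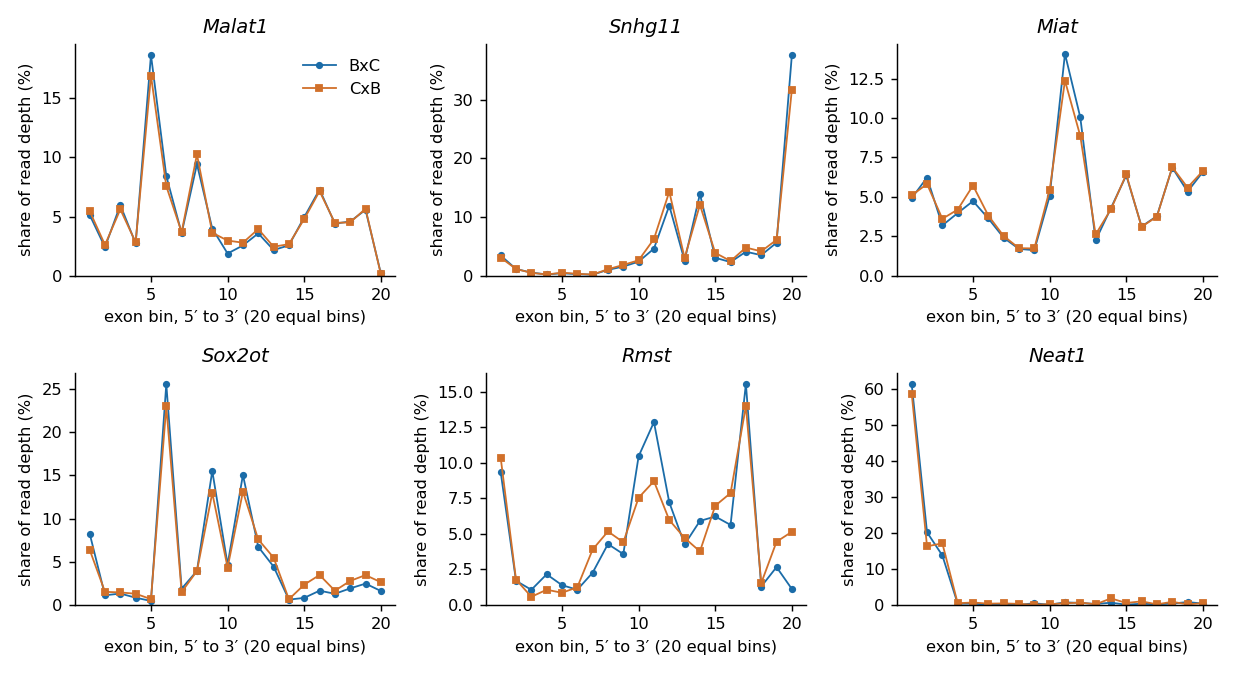
Each panel plots the share of read depth, in percent, in 20 equal bins of the exon bases of 1 RNA from the 5′ to the 3′ end in BxC (circles) and CxB (squares). Neat1 is read at its 5′ end, Snhg11 at its 3′ end with 37.6% and 31.7% in the last bin, and the last bin of Malat1 holds 0.184% and 0.117%. The last bin of Rmst holds 1.11% in BxC and 5.15% in CxB.

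Sox2ot extends over 578 kb of the plus strand at chr3:34003360-34581541 (ENSMUSG00000090828.2), with 16 annotated transcripts whose exons merge into 19 blocks of 8632 bases. Its reads were few and unevenly spread. The deepest block was the thirteenth, chr3:34537096-34537561, with a mean depth of 68.1 reads in BxC and 55.1 in CxB. Block 17, chr3:34574591-34576917, had 25.7 and 21.6, and blocks 2 and 3, at the 5′ end, had 23.4 and 22.8 in BxC and 18.6 and 24.2 in CxB, so that block 17 came next in BxC and block 3 in CxB. The first block had 18.5 in BxC and 7.66 in CxB. All 14 others lay at 10.2 or below in BxC and at 8.53 or below in CxB, and the eighth had no read in BxC and a mean depth of 1.05 in CxB.

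Splicing joined a few of these blocks. The short intron between blocks 2 and 3 had 59 spliced reads in BxC and 36 in CxB, a spliced share of 99.2% and 98.6%. The intron of 37029 bases from the deepest block to the seventeenth had 19 and 16 reads, and it spans Sox2 itself. The longest annotated intron with a spliced read, of 311 kb, had 4 reads in each library. Of the 26 annotated introns 5 had spliced reads in both libraries, 3 in 1 library and 18 in neither. These 3 annotated junctions are shown with the upstream exon in lower case and the downstream exon in capitals, from the plus strand.
Block 2 to block 3: ttggaaagaatgaagATTTCTTCTCACCAA
Block 13 to block 17: atctggcatggtcgcATCGAACCTAGAAAT
Block 3 to block 4: gacggcttaagaacaAAATGAACTGGAGTT
All 79 bases of the hairpin of Mir1897 lie in the deepest block, at chr3:34537386-34537464, under a mean depth of 66.3 reads in BxC and 51.5 in CxB. The mature miRNA is printed from RefSeq with its seed, bases 2 to 8, in capitals, and its own level was not measured by these libraries.
mmu-miR-1897-3p: uCAACUCGuucuguccggugag

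Sox2, the single-exon gene of a transcription factor of neural progenitors, lies in an intron of Sox2ot on the same strand. It had 70.5 RPKM in BxC and 71.8 RPKM in CxB, 23.2 and 22.3 times the level of Sox2ot per length. The introns of Sox2ot held 30.4 reads per kb in BxC and 27.4 in CxB, which is 7.78% and 7.74% of the density on its exons (12.2% and 11.4% with distinct positions), and without 10 kb on each side of Sox2 this was 7.23% and 7.09%. Reads went on past the annotated 3′ end, with 1540 reads in BxC and 1590 in CxB over the next 7 kb (1.71 and 2.07 RPKM). The nearest protein-coding genes outside its span were Dnajc19, 23.1 kb upstream at 2.13 and 2.08 RPKM, and Atp11b, 1072 kb downstream at 9.20 and 9.38 RPKM.

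The ratio between libraries was uneven along Sox2ot. The log2 ratio of depth was above 0 in the last 9 of its 20 bins, from 0.19 to 1.63, and likewise in bins 2 to 5 near the 5′ end, from 0.23 to 0.73, while over the whole RNA it was 0.09. The other 7 bins, which include the deepest, lay between -0.29 and 0.08. The eighteenth block, of 2796 bases, had a mean depth of 3.88 in BxC and 5.92 in CxB, and the 7 kb beyond the annotated end had a log2 ratio of 0.28 (0.18 to 0.38). These are low depths, and the counting intervals do not include the variation of reads per position.

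Rmst lies on the minus strand at chr10:91544491-91627923 (ENSMUSG00000086180.1), with 12 exon blocks of 5149 bases in a span of 83.4 kb. It had 905 reads in BxC and 712 in CxB on its exons and its 12 blocks had mean depths from 3.26 to 19.2 in BxC and from 1.89 to 7.71 in CxB. The third block was the deepest in BxC, with 19.2 beside 7.24 in CxB, and the sixth was the deepest in CxB. At least 1 read lay over 79.3% of its exon bases in BxC and 78.3% in CxB, and at least 10 over 18.1% and 17.4%. All of its exon bases can be reached by a word that occurs once, and 525 of them had no read in either library. Why these were bare was not tested. The second block, 2668 bases long, is overlapped by Gm17341, annotated on the other strand at 1.18 and 1.09 RPKM, and the reads of the pair cannot be told apart by strand.

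Spliced reads tied the exons of Rmst together thinly. Of its 12 annotated introns 5 had spliced reads in both libraries, 9 in at least 1, and 0 had 10 or more in each. Only 1 had spliced reads from at least 2 distinct positions in each library. The most read was the intron of 19.6 kb before the eleventh block, with 13 reads in BxC and 7 in CxB. The tenth block was skipped by 7 reads in BxC and by 4 in CxB, the latter all at 1 position. The pair is shown with the upstream exon in lower case and the eleventh block in capitals, from the minus strand.
From the tenth block: cttgctcagccaaagGTTATGCTTCACATC
From the ninth block: gttctgcttatcaagGTTATGCTTCACATC
The introns were read at 28.4% of the density of the exons in BxC and 30.8% in CxB, the highest share of the 4 members with introns outside the exons of any gene. For Miat, Snhg11 and Sox2ot it was at most 7.78%. Counted by distinct positions the gap was far smaller, with 34.5% and 35.4% for Rmst beside 24.4% and 24.04% for Snhg11. That count lowers exons with many reads per position most, 15.5 and 13.1 on Snhg11 beside 2.11 and 2.10 on Rmst. The smaller gap is therefore in part built into the measure.

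Beyond the annotated 3′ end of Rmst lay more reads than on its exons. The 12 kb downstream held 5062 reads in BxC and 4223 in CxB, which is 5.59 and 5.93 times the number on all exons of Rmst. Its introns held 3900 and 3330 reads over 78.2 kb, and the 12 kb after the downstream stretch held 43 and 42. The deepest 2 kb, chr10:91533491-91535490, had 15.5 RPKM in BxC (14.98 to 15.94) and 14.5 RPKM in CxB (13.97 to 14.98), from 428 and 339 distinct positions. That is 11.3 and 11.5 times the level on the Rmst exons, and the log2 ratio between libraries there was -0.09. A short gap of 100 bases in the downstream stretch had 12 spliced reads in BxC and 6 in CxB and a gap of 3871 bases had 4 and 0, both with GT and AG on the Rmst strand. Of the gaps seen, 0 joined this stretch to an annotated exon of Rmst, and a junction outside the UCSC models could not have been found. Whether the stretch belongs to Rmst was not tested. Its 3′ edge on the Rmst strand is shown for where the depth ends, from chr10:91533813-91533912, minus strand, and AATAAA does not occur in these 100 bases on that strand.
Rmst downstream edge: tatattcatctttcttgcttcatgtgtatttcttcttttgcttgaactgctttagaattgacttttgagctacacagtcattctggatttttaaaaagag
The mean depth fell from 46.5 reads in BxC and 39.2 in CxB over the first 25 of these bases to 1.92 and 1.12 over the last 25.

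The hairpin of Mir135a-2 lies within these 2 kb, at chr10:91534831-91534930, 9.56 kb beyond the annotated end of Rmst and on its strand. The hairpin itself was nearly bare, with a mean depth of 0.89 in BxC and 1.56 in CxB beside 71.2 and 56.7 over the 2 kb, and all 36-base words in it occur once in the genome. It lies at the edge of the deep stretch beyond Rmst and not in the midst of that stretch. The 1-kb window on the 5′ side of the hairpin had a mean depth of 3.40 in BxC and 2.80 in CxB. The window that begins at the hairpin and runs on downstream had 133 and 107. The hairpin also lies inside the spliced gap of 3871 bases, which rests on 4 reads at 1 position in BxC and 0 reads in CxB. The hairpin of Mir1251, in an intron of Rmst at chr10:91599885-91599968, had 1 read in BxC and 0 in CxB. The mature miRNAs of both hairpins are printed from RefSeq with the seed in capitals. The 4 seeds all differ.
mmu-miR-135a-5p: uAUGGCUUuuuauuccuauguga
mmu-miR-135a-2-3p: uGUAGGGAuggaagccaugaa
mmu-miR-1251-5p: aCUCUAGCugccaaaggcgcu
mmu-miR-1251-3p: cGCUUUGCucagccaguguag

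**Figure D4:**
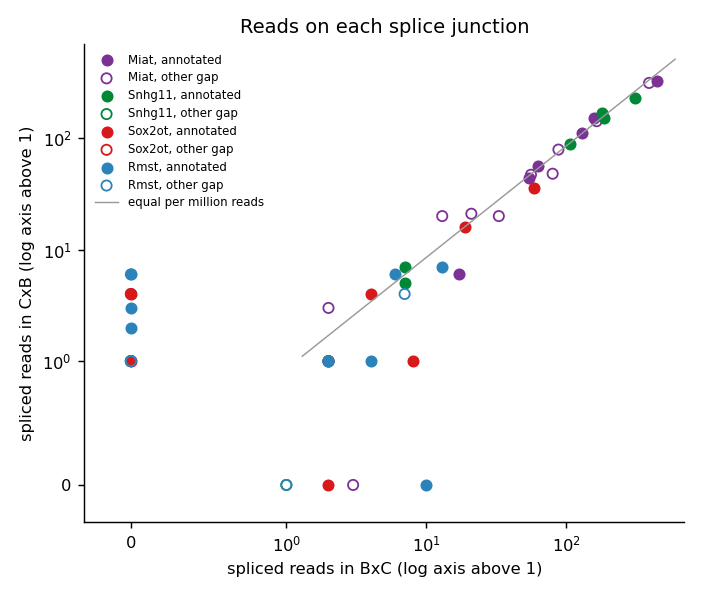
Each point is a splice junction inside Miat, Snhg11, Sox2ot or Rmst, with its spliced reads in BxC on the horizontal and in CxB on the vertical axis, both on a log scale above 1. Filled points are annotated introns, open points other gaps, and the line marks equal RPM: the most read junctions belong to Miat and Snhg11 and lie near the line, while those of Rmst hold 13 reads at most and several are at 0 in 1 library.

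Across the 6 RNAs, 22 of 59 annotated introns had a spliced read in both libraries, 29 in at least 1 and 30 in neither, and 7 of the 30 were those of Malat1 and Neat1. The share of spliced reads among exon reads was highest in Rmst, at 4.97% in BxC and 5.48% in CxB, followed by Sox2ot at 2.78% and 2.19%, Miat at 1.95% and 1.89% and Snhg11 at 0.646% and 0.684%. In the libraries as a whole 6.47% and 6.20% of reads were spliced.

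For scale, 7 of 8 other listed noncoding RNAs were in the gene models, all but Kcnq1ot1. Meg3, a maternally expressed imprinted RNA, stood above Malat1 with 199 RPKM in BxC and 204 RPKM in CxB. Gas5 (14.0 and 10.5 RPKM), Snhg3 (18.0 and 14.2) and Snhg1 (3.15 and 3.46), which like Snhg11 host small nucleolar RNAs, stood below Snhg11. Tug1, a nuclear RNA known from the retina, had 9.60 and 12.3 RPKM, and Dlx6os1, which is transcribed against Dlx6 in interneuron progenitors, had 5.85 and 5.52. Of the 6 RNAs of this list with at least 100 reads in each library, 0 passed 2-fold (0.136% over all genes). The seventh is Xist, whose 142957 and 38 reads are given above and which the minimum of reads left out.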

How the data were processed

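The authors used Novoalign to place 36-base single-end reads on gene models, on junctions between their exons and on mm9, and kept unique alignments. The deposited alignment files of both libraries hold read counts per line: the fourth column was taken as the number of identical reads. It was inferred from the whole-number values and is not described in the sources used here. The totals summed in this way exceed, in both libraries, the average number of reads per library that the study states. Counts were summed over the union of exons of each GENCODE vM1 gene, a read counting once where an aligned block overlapped an exon, on both strands. Levels are RPKM over all deposited reads. Intervals are exact (Poisson, or Clopper-Pearson for shares and ratios, 95%). Ratios required 100 reads in each library. Reads that reached at least 5 bases to each side of an intron border, the shortest block of a spliced read, counted as unspliced, and the spliced share set spliced reads against their sum with the mean over both borders. Sequences and 36-base words were read from the NCBIM37 (mm9) genome, and miRNAs from RefSeq (GRCm38.p6, matched by sequence). In each library the reads of 1 chromosome, chr9, ended 4 bases past the reference end. Analyses used Python 3.11.15, numpy 2.4.6, pandas 2.3.3, scipy 1.17.1 and numba 0.67.0, and counting was tested on simulated data. Named genes were the members, genes overlapping or flanking them, genes next to them in level, the 3 highest genes that are not protein coding, and lists of paraspeckle, speckle, partner, other noncoding and cell marker genes. The members and lists were chosen with earlier results of these data known. Alternatives (distinct positions, gene strand, other totals and scaling, other gene models) are given at the end. The authors' catalog of imprinted genes was not used.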

Additional observations from a re-analysis of the deposited data

How the results depend on the processing

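The count of members past 2-fold stayed at 0 under all 8 alternatives, and of 38 recomputed log2 ratios of single members 36 kept their sign, within -0.23 to 0.12. Many of the 38 could hardly change. Other totals and scaling shift all members alike by a small amount, and other gene models leave the counts of some members as they were. Both changes of sign came with distinct positions. With each distinct position counted once, the ratios of Miat and Snhg11 turned to 0.09 and 0.08, the median ratio moved from -0.06 to 0.0827, the median level from 40.3 RPKM to 17.7 on the same scale for positions, the median share on the gene strand from 42.4% to 48.1% and the median intron density from 6.53% to 20.4% of the exon density. Exon length limits distinct positions, so part of these shifts can be built into that count. On the gene strand only, the median level was 17.4 RPKM. Requiring 10 reads in each library left 11 of 22 annotated introns, and requiring 2 distinct positions in each left 16. A depth of 10 lowered the median covered share from 88.3% to 57.7%. Chosen after seeing the data, the short span raised Neat1 to 4.54 RPKM from 0.738, and leaving out the last 200 bases lowered Snhg11 to 74.5 RPKM from 107. With no minimum of reads the background rose from 0.136% to 10.9% of genes past 2-fold. With distinct positions it was 0.00717%, or 1 gene of 13947. The causes were not tested. Neat1 and Rmst had the lowest mean depths of the 6, 3.64 and 5.94 reads in BxC and 2.73 and 4.78 in CxB. No paired analysis was possible because each cross has 1 library.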

Other observations

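The flanks of the 6 genes differed in how many reads they held. In the 3 kb before the annotated start, Snhg11 had 15 reads in BxC and 11 in CxB, Rmst 13 and 9 and Sox2ot 2 and 4. Miat had 214 and 205, Malat1 191 and 136 and Neat1 73 and 34. These counts include reads that cross the annotated start. By mean depth over the same 3 kb Malat1, at 0.232 and 0.196, lay near Snhg11 at 0.18 and 0.123. Neat1 stood at 0.842 and 0.403 and Miat at 2.19 and 2.12. In the 3 kb after the annotated end, Malat1 had 25 and 27 reads, Miat 48 and 20, Snhg11 54 and 54 and Neat1 2 and 11. Among nearest protein-coding genes, Frmd8, 4.22 kb upstream of Neat1, had 3.05 RPKM in BxC and 3.98 RPKM in CxB. Cryba4, a lens crystallin gene 17.54 kb upstream of Miat, had 32 reads in BxC and 68 in CxB, under the minimum of 100 for a ratio.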
